A study of Mus musculus with 4 samples.

Results

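Checkpoint-positive CD8 T cells were examined among leukocytes of mouse B16 melanomas. They were non-cycling CD8 T cells that carried at least 1 transcript of Pdcd1, Lag3, Havcr2, Tigit or Tnfrsf9. Transcripts were counted as UMIs, unique molecular identifiers that each tag 1 captured RNA. The rule kept barcodes with at least 1000 UMIs, at least 500 genes and at most 10% mitochondrial UMIs. It then asked for a Cd3 UMI and a Cd8a or Cd8b1 UMI, for none of Cd4, Foxp3, Csf1r, Xcr1 and Cd79a, for fewer than 3 UMIs of 4 cycling genes (Mki67, Top2a, Rrm2 and Hist1h2ap) and for at least 1 UMI of the 5 checkpoint genes. The cells were thus chosen by their UMIs of the 5 checkpoint genes and of the gate genes, and these values are given only as a description. The rule found 156 cells among the 7581 barcodes kept as cells: 124 of 3211 in the library labelled KO and 32 of 4370 in the library labelled WT. The CD8 cells that met every condition but had 0 checkpoint UMIs, 226 in KO and 214 in WT, are called other CD8 cells.

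KO mice were labelled as knocked out for ATPIF1, the inhibitory factor of the mitochondrial F1Fo-ATPase, and WT mice as wild type. The mice of both genotypes were male C57BL/6 animals, and each bore a B16 tumour, from a transplantable melanoma line of that strain, in the right flank up to day 12. CD45-positive leukocytes were sorted from the mixed tumour suspensions of the mice of 1 genotype. The labels give n = 6, without saying whether per genotype, and 1 RNA library and 1 T cell receptor library was made from each pool with 5′ droplet chemistry. With 1 library per genotype there is no replicate error and no test between genotypes, and KO and WT below mean the libraries so labelled. Intervals are 95% intervals that cover counting error only, since cells of a library are not replicates.

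Cytotoxic CD8 T cells that meet their antigen switch on receptors that restrain them. PD-1 (Pdcd1), LAG-3 (Lag3), TIM-3 (Havcr2) and TIGIT (Tigit) are such inhibitory receptors, and the first of these is the target of antibodies used against melanoma. 4-1BB (Tnfrsf9) is a costimulatory receptor that appears after recent antigen contact. Where antigen persists, as in a tumour, T cells can keep these receptors together with the transcription factor TOX, a state called exhaustion, while the factor TCF1 (Tcf7) marks naive and stem-like cells.

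The T cell receptor sequences played no part in the choice of the cells. A clone was taken here as cells with an identical nucleotide sequence of the CDR3 of the beta chain (TRB), the loop that contacts antigen. The expanded clones, those with 2 or more non-cycling CD8 cells, are shown because they held most of the KO cells with a known receptor. In each sequence, read 5′ to 3′ from the deposited receptor contigs, capitals mark the middle bases that few other clonotypes share: neither 2 other clonotypes with the same V gene match them from the 5′ end nor 2 others with the same J gene from the 3′ end.
KO TRBV29/TRBJ2-7: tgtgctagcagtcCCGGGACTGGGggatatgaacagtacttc
KO TRBV10/TRBJ2-1: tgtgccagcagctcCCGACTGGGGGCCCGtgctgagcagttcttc
KO TRBV13-2/TRBJ1-1: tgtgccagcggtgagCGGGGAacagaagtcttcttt
KO TRBV20/TRBJ2-2: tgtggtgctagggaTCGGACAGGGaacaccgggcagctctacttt
KO TRBV26/TRBJ1-2: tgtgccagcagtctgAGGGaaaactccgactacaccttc
KO TRBV16/TRBJ2-7: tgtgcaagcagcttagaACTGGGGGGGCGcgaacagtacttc
KO TRBV5/TRBJ1-1: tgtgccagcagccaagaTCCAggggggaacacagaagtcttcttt
KO TRBV13-2/TRBJ2-5: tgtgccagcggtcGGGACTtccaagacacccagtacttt
WT TRBV3/TRBJ1-1: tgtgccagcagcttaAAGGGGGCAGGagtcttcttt
WT TRBV3/TRBJ2-5: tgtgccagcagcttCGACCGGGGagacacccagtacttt
The 2 clones named TRBV13-2 carried the deposited call TRBV12-2+TRBV13-2. All 10 sequences differed in their capitals, and no TRB clonotype of a CD8 cell was found in both libraries.

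Expanded clones made up most of the checkpoint-positive KO cells whose receptor was read. Of 60 such KO cells with a TRB sequence, 49 belonged to an expanded clone (81.7%, 69.6 to 90.5), against 7 of 41 other KO CD8 cells (17.1%, 7.15 to 32.1). In WT, 2 of 15 checkpoint-positive cells did (13.3%, 1.66 to 40.5), against 3 of 55 other CD8 cells (5.45%, 1.14 to 15.1). The KO intervals of the 2 groups did not overlap and the WT intervals did. These intervals take each cell as a separate draw, but cells of 1 clone count as expanded together. The 49 KO cells came from 8 clones, so the overlap is only a description. When a clone needed identical alpha and beta chains, 19 of 26 checkpoint-positive KO cells (73.1%, 52.2 to 88.4) and 3 of 14 other KO CD8 cells (21.4%, 4.66 to 50.8) were in an expanded clone, against 1 of 7 and 1 of 21 in WT. A TRB sequence was read in 48.4% of the checkpoint-positive KO cells and 18.1% of the other KO CD8 cells, and in 46.9% and 25.7% of the same WT groups.

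KO had 8 expanded TRB clones among 53 TRB clonotypes of CD8 cells, and WT had 2 among 67. The 3 largest KO clones held 34 of the 60 checkpoint-positive KO cells with a TRB sequence (56.7%). The TRBV29/TRBJ2-7 clone had 15 checkpoint-positive cells and 2 other CD8 cells, the TRBV10/TRBJ2-1 clone had 10 and 3, and the TRBV13-2/TRBJ1-1 clone had 9 and 1. Among all cells kept with an alpha chain read, the commonest alpha sequence was in 9 of 15 cells of the TRBV29/TRBJ2-7 clone. It was in 12 of 15 of the TRBV10/TRBJ2-1 clone and 3 of 3 of the TRBV13-2/TRBJ1-1 clone. Whether all cells with 1 TRB sequence came from 1 clone was not tested. Of the 5 smaller KO clones, the TRBV20/TRBJ2-2 clone was the only one with an other CD8 cell. Across all cells kept, the 8 KO clones held 92 cells, of which 49 were checkpoint-positive, 7 were other CD8 cells and 36 fell outside the non-cycling CD8 gate. Of those 36 cells, 27 had been left out as cycling, 11 of them from the TRBV10/TRBJ2-1 clone. The cells of a genotype came from several mice in 1 suspension, so clones of 1 mouse and clones of several cannot be told apart.

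**Figure D1:**
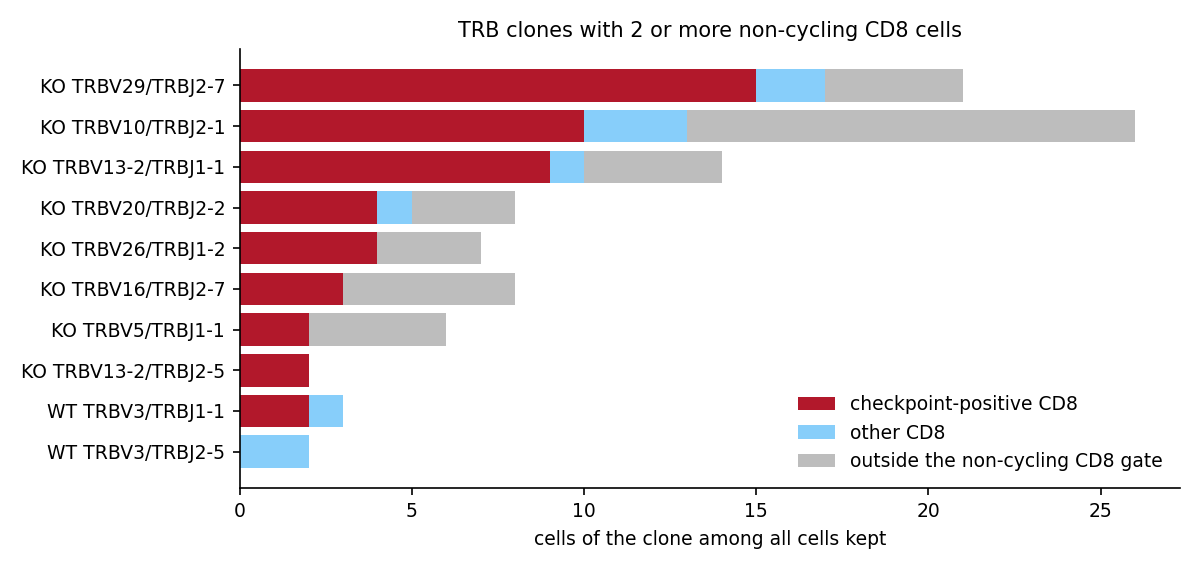
Number of cells (x axis) of each TRB clone with 2 or more non-cycling CD8 cells (rows, 8 KO above 2 WT), split into checkpoint-positive CD8 cells, other CD8 cells and cells outside the non-cycling CD8 gate. In the 8 KO clones 49 cells were checkpoint-positive and 7 were other CD8 cells, against 2 and 3 in the 2 WT clones.

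The labels were set against the markers. The T cell markers summed to 4520 CPM (summed UMIs of a group scaled to a common total) in checkpoint-positive KO cells and 2982 CPM in other KO CD8 cells, and to 2839 and 2612 CPM in the same WT groups; the list holds Cd3 genes that the rule asked for, so the sums are a description. Of the B cell markers, Cd79a was at 0 by the rule, and the others of the list were at 0 UMIs in both checkpoint-positive groups too. The NK cell list summed to 468 CPM in checkpoint-positive and 389 CPM in other KO CD8 cells, and to 914 and 417 CPM in the same WT groups. Of its 9 genes, 6 had UMIs in both checkpoint-positive groups, and Ncr1, Klra8 and Klra4 were at 0 there. Ncr1 and Klra4 were also at 0 in the other CD8 cells of both libraries, and Klra8 in those of WT, so these zeros did not set the groups apart. Without the mixed barcodes described next the sums were 207 and 284 CPM in KO and 595 and 210 CPM in WT. The NK list was thus higher in checkpoint-positive than in other WT CD8 cells either way, and its part in the WT results was not tested. Antigen-presenting class II genes were present: the dendritic cell list, which holds them, summed to 4809 CPM in checkpoint-positive and 2298 CPM in other KO CD8 cells. In WT it summed to 10876 and 4659 CPM in the same groups. The class II RNA sat in few barcodes. Cells with at least 1% class II UMIs or at least 10 S100a8 and S100a9 UMIs (neutrophil genes), called mixed barcodes here, numbered 4 of the 124 KO and 3 of the 32 WT cells and held 91.5% and 95.1% of the class II UMIs. Without mixed barcodes the dendritic cell list summed to 559 CPM in checkpoint-positive and 564 CPM in other KO CD8 cells. In WT it summed to 969 and 348 CPM. The neutrophil list summed to 12.3 and 35.0 CPM in KO and to 172 and 947 CPM in WT, checkpoint-positive before other CD8 cells. Without mixed barcodes it summed to 13.8 and 35.0 CPM and to 221 and 130 CPM. The macrophage list summed to 283 and 480 CPM in KO and to 330 and 357 CPM in WT. In the same order, the regulatory T cell list summed to 298 and 88.4 CPM in KO and to 112 and 30.4 CPM in WT. Its Foxp3 was at 0 by the rule, and it holds Ctla4, which is named below as an inhibitory receptor. The CD4 helper list, Cd4 being at 0 by the rule, had 32.9 and 63.4 CPM in KO and 74.9 and 77.3 CPM in WT. The CD8 markers, which the rule asked for, had 1415 and 924 CPM in KO and 757 and 789 CPM in WT. The part of these lists in the results was not tested. Values without mixed barcodes are given beside the lists and genes that moved most with them, and their part in the other results was not tested.

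Depth was unequal between the groups compared. The median cell held 3148 UMIs among checkpoint-positive KO cells and 2442 among other KO CD8 cells, and 3737 and 2998 in the same WT groups, with 487000, 599647, 133508 and 724604 UMIs in all. From haemoglobin and melanoma transcripts, free RNA was put at 5.08% of the UMIs of CD8 cells in KO and 2.46% in WT. These rest on few counts and carry no interval. Melanoma genes had 5 UMIs in checkpoint-positive and 11 in other KO CD8 cells, and 3 and 28 in WT. Red cell genes had 1 and 4 UMIs in KO and 0 and 1 in WT. No barcode of a CD8 cell was shared by the libraries, although 29 barcodes of all cells kept were. Atpif1 itself (chromosome 4, 132530555 to 132535450, GRCm38.p6) gave 123 UMIs in 57 checkpoint-positive KO cells (253 CPM) and 22 UMIs in 11 checkpoint-positive WT cells (165 CPM), a log2 ratio of 0.62 (-0.05 to 1.34). Its transcript was thus not lower in the library labelled KO. The labels do not describe the deleted part, and 5′ reads outside it would check nothing.

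Checkpoint-positive cells made up 35.4% of the 350 non-cycling CD8 cells in KO (30.4 to 40.7) and 13.0% of the 246 in WT (9.07 to 17.9). The share was 2.72-fold as high in KO, a log2 ratio of 1.45 (0.87 to 2.05). After each cell had been thinned to 1000 UMIs, 72 KO cells (20.6%, 16.5 to 25.2) and 17 WT cells (6.91%, 4.08 to 10.8) had a checkpoint UMI, a log2 ratio of 1.57 (0.80 to 2.43). The same UMIs chose the cells, so these shares describe the rule and were not tested. B cells, which should hold little of these genes, gave 2 of 39 cells in KO (5.13%, median 1542 UMIs) and 12 of 310 in WT (3.87%, median 1801 UMIs) with a checkpoint UMI, below the CD8 shares. Csf1r-positive myeloid cells, which were deeper, had one in 130 of 656 KO cells (19.8%, median 7263 UMIs) and 302 of 1064 WT cells (28.4%, median 8757 UMIs), the WT share being above that of WT CD8 cells. Most of these cells had Havcr2, seen in 15.4% of the KO and 23.2% of the WT myeloid cells. After thinning the myeloid shares were 5.18% in KO and 4.51% in WT, and the WT interval (3.34 to 5.94) overlapped that of WT CD8 cells. Thinned B cells had a checkpoint UMI in 0 of 39 KO and 6 of 310 WT cells. The WT B cell interval (1.94%, 0.71 to 4.16) also overlapped that of thinned WT CD8 cells. The cycling CD8 cells, which the rule left out, had a checkpoint UMI in 35 of 39 KO cells and 6 of 7 WT cells.

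The 5 genes differed in how often they were seen. Pdcd1 (chromosome 1, 94038305 to 94052553, GRCm38.p6) was the most often detected in KO, with 119 UMIs in 70 of the 124 KO cells, against 16 UMIs in 10 of the 32 WT cells. Tigit (chromosome 16, 43626137 to 43665125) gave 104 UMIs in 63 KO cells and 17 UMIs in 15 WT cells, where it was the most often detected. Lag3 (chromosome 6, 124904359 to 124912434) gave 81 UMIs in 53 KO cells and 7 UMIs in 5 WT cells. Havcr2 (chromosome 11, 46454931 to 46481255), linked to late exhaustion, was the least often seen, with 16 UMIs in 14 KO cells and 2 UMIs in 2 WT cells. Tnfrsf9 (chromosome 4, 150920155 to 150946104) gave 73 UMIs in 33 KO cells and 9 UMIs in 7 WT cells.

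Several checkpoint genes in 1 cell were mostly seen in KO. Of the KO cells, 63 had 1 of the 5 genes, 27 had 2, 23 had 3, 8 had 4 and 3 had all 5. Of the WT cells, 27 had 1 gene, 4 had 2 and 1 had 4. Cells with 2 or more genes were thus 61 of 124 in KO (49.2%) and 5 of 32 in WT (15.6%). The most frequent pairs in KO were Pdcd1 with Tigit in 33 cells and Pdcd1 with Lag3 in 30 cells. The median depth was 2443 UMIs in KO cells with 1 gene and 4141 UMIs in those with 2 or more, so detection moved with depth. At the edge of the rule, 49 KO and 22 WT cells had exactly 1 checkpoint UMI, while 75 KO and 10 WT cells had 2 or more, up to 13 in 1 KO cell and 6 in 1 WT cell.

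**Figure D2:**
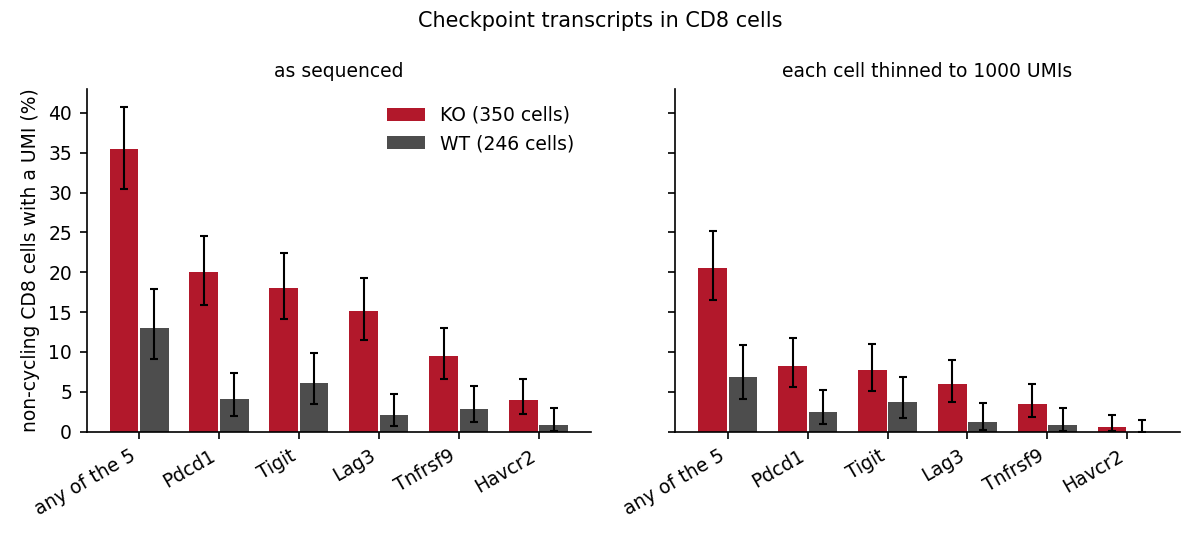
Share of non-cycling CD8 cells with at least 1 UMI (y axis, percent) of any of the 5 checkpoint genes and of each gene, KO left of WT, as sequenced (left panel) and with each cell thinned to 1000 UMIs (right panel); lines are exact 95% binomial intervals. Any of the 5 genes was seen in 35.4% of KO and 13.0% of WT cells as sequenced, and in 20.6% and 6.91% after thinning.

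The question was then which other genes went with the checkpoint genes, taken within each library so that the genotype and the library were the same on both sides. Genes outside the rule were compared in CPM, and a gene counted as measured with at least 20 UMIs over both groups. No test could be made, so a size of at least 1.5-fold was used to count genes. Over all 4845 genes measured in KO, 33.7% were at least 1.5-fold higher and 8.67% at least 1.5-fold lower in checkpoint-positive than in other CD8 cells, with a median log2 ratio of 0.34. Over the 3789 genes measured in WT these shares were 29.6% and 13.0%, with a median of 0.22. Counts of a list below are read against these shares.

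Transcription factors of exhaustion and of the T cell receptor response were higher in the checkpoint-positive cells of both libraries. In KO, 20 of the 22 listed factors were measured, of which 14 were at least 1.5-fold higher and 0 lower, with a median log2 ratio of 1.07. In WT, 17 were measured, of which 12 were higher and 0 lower, with a median of 1.12. Without mixed barcodes the KO median was 1.13, with 14 of 19 higher (35.6% of all genes) and 0 lower (9.07%), but the WT median was 0.63, with 8 of 14 higher (27.4% of all genes) and 2 lower (13.5%). The WT median was also 0.52 after thinning to 1000 UMIs and 0.26 with a TRB sequence required. Against other CD8 cells with at least 2 UMIs of the granule and effector genes Nkg7, Ccl5, Gzmk, Gzmb and Prf1, the medians were 0.95 in KO (14 of 18 higher and 0 lower, where 32.7% of all genes were higher and 8.69% lower) and 0.88 in WT (9 of 14 higher and 1 lower, where 29.1% were higher and 10.3% lower).

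Tox (chromosome 4, 6686353 to 6991557), the factor that maintains exhausted cells, had 77 UMIs in 48 checkpoint-positive KO cells (158 CPM) and 27 UMIs in 19 other KO CD8 cells (45.0 CPM), a log2 ratio of 1.81 (1.16 to 2.50). In WT it had 6 UMIs in 5 checkpoint-positive cells (44.9 CPM) and 14 UMIs in 13 other CD8 cells (19.3 CPM), a ratio of 1.22 whose interval included 0 (-0.45 to 2.69). Rbpj, the DNA-binding partner of Notch, had 156 and 35.0 CPM in KO, a ratio of 2.16 (1.44 to 2.93), and 44.9 and 20.7 CPM in WT (1.12, -0.54 to 2.57). For both genes the KO groups stood apart beyond counting error and the WT counts were too low to say.

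Bhlhe40, a factor needed for cytokine production by T cells, had 333 CPM in checkpoint-positive and 118 CPM in other KO CD8 cells (log2 ratio 1.49, 1.08 to 1.91), and 382 and 92.5 CPM in WT (2.05, 1.49 to 2.59). Of the NR4A nuclear receptors, which T cell receptor signals induce, Nr4a3 had 302 and 135 CPM in KO (1.16, 0.76 to 1.57) and 390 and 126 CPM in WT (1.63, 1.11 to 2.14). Nr4a2 had 645 and 303 CPM in KO (1.09, 0.82 to 1.36) and 502 and 230 CPM in WT (1.12, 0.69 to 1.54), though the WT ratio was 0.43 (-0.14 to 0.97) without mixed barcodes. Nr4a1 went the other way in KO, with 593 CPM in checkpoint-positive and 732 CPM in other CD8 cells (-0.30, -0.52 to -0.09), and had 629 and 420 CPM in WT (0.58, 0.22 to 0.94). Nfatc1, a calcium-activated factor, and Hif1a, the oxygen-sensing factor, were higher in both libraries, with KO ratios of 1.41 and 1.5 and WT ratios of 1.75 and 1.73.

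Receptors outside the rule were mostly higher in KO. Of 9 measured inhibitory receptors and surface proteins of exhausted cells, 6 were at least 1.5-fold higher and 0 lower in KO (median log2 ratio 0.88), while in WT 1 of 5 was higher and 1 lower (0.17), or 1 of 4 higher and 1 lower (-0.05) without mixed barcodes. Ctla4, the inhibitory receptor that competes with CD28, had 191 CPM in checkpoint-positive and 45.0 CPM in other KO CD8 cells (2.08, 1.45 to 2.76), and 52.4 and 13.8 CPM in WT (1.93, 0.30 to 3.47). Cxcr6, a chemokine receptor of tissue-resident T cells, had 193 and 43.4 CPM in KO (2.15, 1.51 to 2.84), and 59.9 and 17.9 CPM in WT (1.74, 0.26 to 3.12).

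Among costimulatory receptors, 6 of 9 measured were at least 1.5-fold higher in KO (median 0.96) and 3 of 7 in WT (0.51), with 0 lower in either library. The largest KO ratio of the list was that of Tnfrsf4, which encodes OX40: 54 UMIs in 27 of 124 checkpoint-positive KO cells, against 8 UMIs in 7 of 226 other KO CD8 cells (log2 ratio 3.06, 1.97 to 4.34). In WT it had 16 UMIs in 9 of 32 checkpoint-positive cells and 3 UMIs in 3 of 214 others (4.86, 3.05 to 7.28). Icos had log2 ratios of 1.42 (0.56 to 2.34) in KO and 1.81 (0.57 to 2.99) in WT. Cd27 had 160 and 68.4 CPM in KO (1.23, 0.66 to 1.81) and 52.4 and 46.9 CPM in WT (0.16, -1.26 to 1.36).

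Effector genes were uneven. Of 10 cytokines and chemokines measured in KO, 5 were at least 1.5-fold higher and 1 lower (median 0.70), and of 9 in WT, 5 were higher and 1 lower (0.80). Xcl1 (chromosome 1, 164931644 to 164935522), a chemokine for cross-presenting dendritic cells, stood out in KO, with 425 UMIs in 43 of 124 checkpoint-positive cells (873 CPM) and 40 UMIs in 25 of 226 other CD8 cells (66.7 CPM), a log2 ratio of 3.71 (3.24 to 4.22). In WT it had 8 UMIs in 5 checkpoint-positive cells (59.9 CPM) and 31 UMIs in 18 others (42.8 CPM), a ratio of 0.49 (-0.85 to 1.64). The highest cell held 73 of the 425 KO UMIs. Xcl1 was at 131 CPM in the empty droplets of KO and at 8.51 CPM in those of WT.

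Ccl4, a chemokine of activated T cells, had 844 and 267 CPM in KO (1.66, 1.39 to 1.93) and 757 and 400 CPM in WT (0.92, 0.58 to 1.25). Ccl5, which attracts T cells and monocytes, had 6943 and 3899 CPM in KO (0.83, 0.76 to 0.91) and 8606 and 3773 CPM in WT (1.19, 1.09 to 1.29). Ifng, the macrophage-activating interferon, had 207 and 140 CPM in KO (0.57, 0.13 to 1.00) and 202 and 91.1 CPM in WT (1.15, 0.45 to 1.82). Its direction depended on the cells, since it turned to -0.44 in KO among cells with a TRB sequence and to -1.36 in WT among cells with 2 or more checkpoint UMIs.

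Of 14 cytolytic genes measured in KO, 7 were at least 1.5-fold higher and 1 lower (median 0.77), and of 11 in WT, 4 were higher and 0 lower (0.24). Nkg7, which takes part in granule release, had 2053 CPM in checkpoint-positive and 982 CPM in other KO CD8 cells (1.06, 0.92 to 1.21), and 831 and 708 CPM in WT (0.23, -0.08 to 0.53). Gzmk had 129 and 40.0 CPM in KO (1.69, 0.99 to 2.44) and 59.9 and 33.1 CPM in WT (0.86, -0.51 to 2.06). Gzmb was sparse, with 31 UMIs in 17 checkpoint-positive and 9 UMIs in 6 other KO CD8 cells (2.08, 0.98 to 3.34). Fasl, the death ligand, had log2 ratios of 2.00 (1.04 to 3.07) in KO and 1.93 (0.30 to 3.47) in WT.

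Genes of naive, stem-like and memory T cells were lower in the checkpoint-positive cells, most clearly in KO. All 19 listed genes were measured in KO, of which 14 were at least 1.5-fold lower and 2 higher, with a median log2 ratio of -1.28. In WT 6 of 18 were lower and 1 higher, with a median of -0.39. Tcf7 was lower in both libraries, with 86.2 CPM in checkpoint-positive and 234 CPM in other KO CD8 cells (-1.44, -1.97 to -0.93), and 105 and 212 CPM in WT (-1.02, -1.92 to -0.23). Lef1, its relative, had ratios of -1.70 (-2.46 to -0.996) in KO and -1.16 (-2.32 to -0.18) in WT. Id3, a regulator of memory T cells, had ratios of -1.77 (-2.48 to -1.12) and -1.31 (-2.47 to -0.34).

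The transcription factor genes Klf2 and Klf3 were lower in checkpoint-positive KO cells, while their WT ratios had intervals that included 0. Klf2, the factor that keeps T cells in circulation, had 174 CPM in checkpoint-positive and 750 CPM in other KO CD8 cells (-2.10, -2.46 to -1.77), and 577 and 705 CPM in WT (-0.29, -0.66 to 0.06). Klf3 had 22.6 and 155 CPM in KO (-2.78, -3.83 to -1.87) and 150 and 117 CPM in WT (0.35, -0.43 to 1.07). The intervals of these ratios did not overlap between the libraries for either gene, and the difference was not tested. Il7r, the receptor for a survival cytokine, had ratios of -1.28 (-1.75 to -0.84) in KO and -0.37 (-0.96 to 0.18) in WT. The KO median of the list was -1.29 against other CD8 cells with granule and effector genes.

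The genes that led the KO comparison by size were Nrgn, Xcl1, Ifitm1, Rgs16, Tnfrsf4, Tcrg-C2, Bcl2a1d, S100a4, S100a6 and Cxcr6 on the higher side. Rgs16, a brake on chemokine receptor signals, had 135 UMIs in 53 checkpoint-positive and 20 UMIs in 13 other KO CD8 cells (3.06, 2.37 to 3.81), against 7 UMIs in 5 and 20 UMIs in 15 cells in WT (0.93, -0.56 to 2.23). Bcl2a1d, a survival gene whose reads cannot be told from those of its near copy Bcl2a1b with certainty, had ratios of 2.52 (1.91 to 3.18) in KO and 2.12 (1.19 to 3.03) in WT. The calcium-binding genes S100a4 and S100a6 had KO ratios of 2.13 and 1.77 and WT ratios of 1.01 and 0.77, the WT values turning to -0.19 with a TRB sequence required and to -0.34 after thinning. Ifitm1, an interferon-induced gene, was 1 cell in the main: 101 of its 152 UMIs in checkpoint-positive KO cells lay in 1 of 4 cells, and its ratio of 3.38 was -3.41 without mixed barcodes.

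On the lower side the leading genes included Klf3, Klf2, Txk, Satb1, Rrad, Nsg2, Socs3, Id3 and Ssh2. Satb1, a chromatin organiser of naive T cells, had 67.8 and 287 CPM in KO (-2.08, -2.67 to -1.54) and 225 and 306 CPM in WT (-0.45, -1.05 to 0.11). Socs3, an inhibitor of cytokine signals, had 61.6 and 222 CPM in KO (-1.85, -2.47 to -1.27) and 255 and 374 CPM in WT (-0.55, -1.11 to -0.04). Txk, a T cell kinase, had ratios of -2.51 (-3.63 to -1.54) in KO and -0.44 (-1.72 to 0.63) in WT, Rrad had -2.21 and -0.57, Nsg2 had -2.17 and -1.17, and Ssh2 had -1.86 and -0.64.

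Signalling and feedback genes of the T cell receptor were higher on balance in KO, with 14 of 24 measured at least 1.5-fold higher and 4 lower (median 0.76). In WT 7 of 21 were higher and 2 lower (0.32), near the shares over all genes. The adaptor Sh2d2a had ratios of 1.84 (1.37 to 2.33) in KO and 1.31 (0.60 to 1.99) in WT. Rgs1, which dampens T cell migration, had 423 and 198 CPM in KO (1.09, 0.76 to 1.43) and 427 and 95.2 CPM in WT (2.16, 1.63 to 2.69). Of the adhesion and homing genes, the integrin gene Itga4 was higher in both libraries (1.05 and 1.32). Cxcr4, a chemokine receptor, was lower in checkpoint-positive KO cells (156 against 387 CPM; -1.31, -1.70 to -0.93) and higher in checkpoint-positive WT cells (397 against 264 CPM; 0.59, 0.12 to 1.04).

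The remaining lists were mixed. Survival and death genes had 6 of 13 at least 1.5-fold higher and 2 lower in KO (median 0.48), and 3 of 11 higher and 2 lower in WT (0.18). Cytokine receptor genes had 7 of 15 higher and 3 lower in KO (0.55), and 2 of 12 higher and 2 lower in WT (0.07). Interferon-induced genes had 3 of 21 higher and 6 lower in KO (0.25), and 9 of 21 higher and 4 lower in WT (0.16). Without mixed barcodes they had 6 of 20 higher and 5 lower in KO (0.19), and 1 of 19 higher and 7 lower in WT (-0.23). Class I antigen presentation genes had 5 of 15 higher and 0 lower in KO (0.46), and 1 of 14 higher in WT (0.15). Immediate early and stress genes had 0 of 21 higher and 6 lower in KO (-0.28), led by Fos with 351 and 707 CPM (-1.01, -1.27 to -0.75), and 4 of 21 higher and 0 lower in WT (0.15), where Fos had 652 and 650 CPM. Without mixed barcodes 1 of the 21 was higher and 1 lower in WT (0.04).

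Metabolic genes divided by genome. Of 13 glycolysis and lactate genes measured, 8 were at least 1.5-fold higher and 0 lower in KO (median 0.72), and 8 were higher and 1 lower in WT (0.74). Gapdh, a central glycolytic enzyme, had 1669 and 762 CPM in KO (1.13, 0.96 to 1.30) and 1610 and 965 CPM in WT (0.74, 0.51 to 0.96). The nuclear genes of the ATP synthase, the enzyme that ATPIF1 inhibits, had a median of 0.59 in KO, with 7 of 14 higher, and of 0.23 in WT, with 2 of 14 higher. Nuclear genes of complexes I, III and IV had medians of 0.54 (14 of 32 higher) and 0.24 (4 of 32 higher). In both lists the WT median was about that of all genes, 0.22.

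The mitochondrially encoded genes were lower in checkpoint-positive cells. In KO 7 of 13 were at least 1.5-fold lower, with a median of -0.60 and a range of -0.94 to -0.35, and in WT 0 of 13 passed that size, with a median of -0.35 and a range of -0.58 to -0.14. The median mitochondrial share per cell, which the cell filter limits, was 2.49% in checkpoint-positive and 3.86% in other KO CD8 cells, and 2.83% and 3.48% in WT. The gene mt-Atp6, a subunit of the ATP synthase, had 4647 and 7066 CPM in KO (-0.60, -0.68 to -0.53) and 4951 and 6408 CPM in WT (-0.37, -0.49 to -0.25), the WT ratio being 0.016 with a TRB sequence required.

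**Figure D3:**
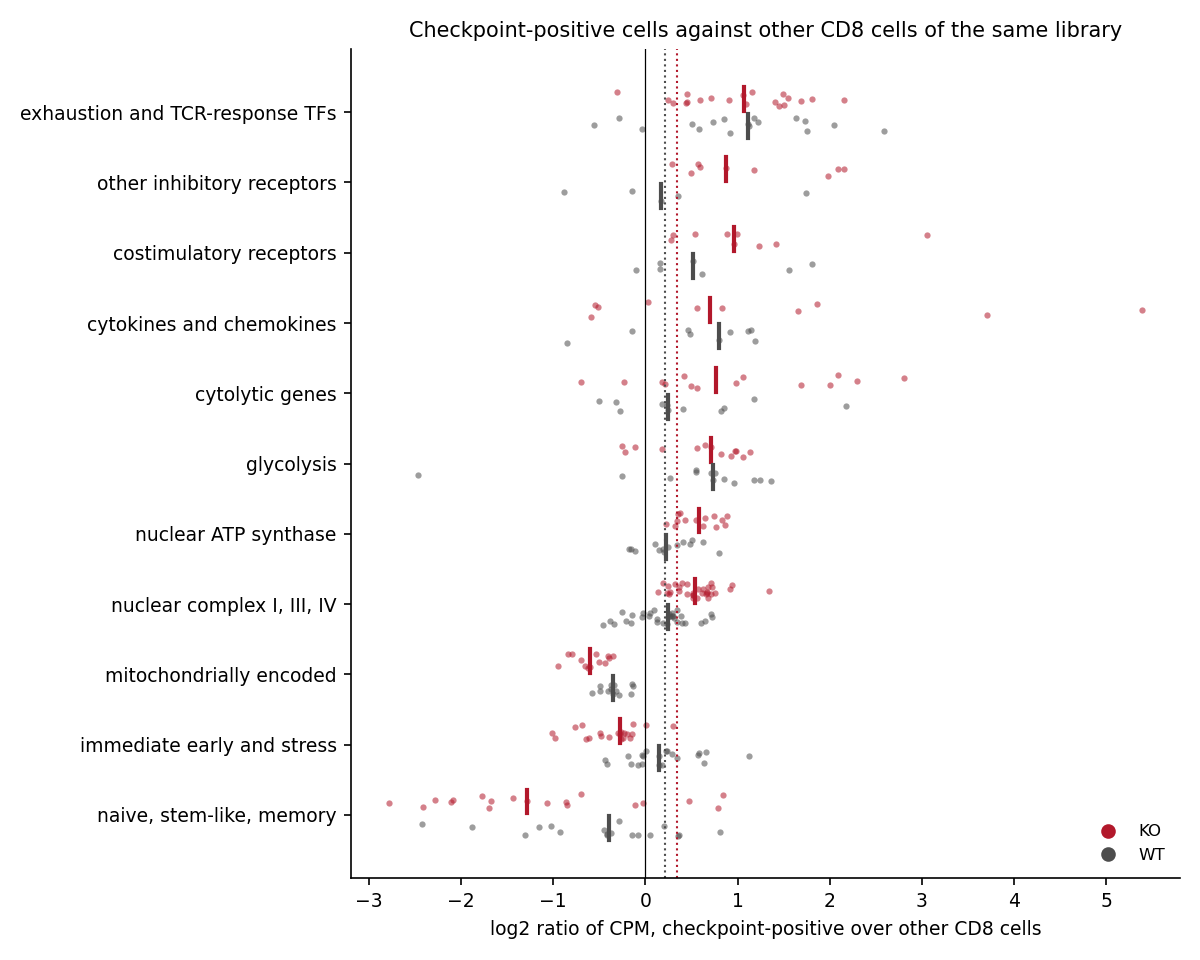
Log2 ratio of CPM, checkpoint-positive over other CD8 cells of the same library (x axis), for each measured gene (point) of 11 gene lists (rows), KO above WT in each row; thick bars are list medians and dotted lines the medians of all genes measured (0.34 KO, 0.22 WT). Exhaustion factors have medians of 1.07 in KO and 1.12 in WT, and naive, stem-like and memory genes of -1.28 in KO and -0.39 in WT.

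Checkpoint-positive cells of the library labelled KO were then set against those of the library labelled WT. Over the 3502 genes measured, 28.8% were at least 1.5-fold higher and 15.3% at least 1.5-fold lower in KO, with a median log2 ratio of 0.13. In the other CD8 cells the shares were 12.1% and 11.3% of 5024 genes, with a median of 0.04. The 32 WT cells held fewer UMIs, which widens the spread of single genes. The groups were also unlike in make-up. A single checkpoint UMI had chosen 22 of these 32 cells, against 49 of 124 in KO. At least 2 checkpoint genes were seen in 15.6% of the WT group and 49.2% of the KO group. In KO, 34 of the 60 cells with a TRB sequence came from the 3 largest clones. The ratios below are thus not between matched cells, and the part of these differences in them was not tested.

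The higher side was led by Xcl1, Nrgn, Rgs16, Tcrg-C2, Gstp3, Nkg7, Dut, S100a6, Trbc1 and Arhgap9. Xcl1 had 873 CPM in KO and 59.9 CPM in WT cells (3.86, 2.87 to 5.09), while in other CD8 cells its ratio was 0.64 (-0.07 to 1.37). Rgs16 had 277 and 52.4 CPM (2.40, 1.32 to 3.74), and Nkg7 had 2053 and 831 CPM (1.30, 1.02 to 1.60). Tcrg-C2, a constant segment of the gamma chain whose reads may be split with its near copy Tcrg-C1, had 52 UMIs in 24 KO cells and 1 UMI in 1 WT cell (3.83, 1.29 to 9.16). The whole gamma-delta T cell list of 6 genes summed to 140 CPM in checkpoint-positive KO and 7.49 CPM in checkpoint-positive WT cells, with Il17a at 0, and to 20.01 and 20.7 CPM in other CD8 cells. Of the 52 Tcrg-C2 UMIs in KO, 27 lay in cells of the 3 largest TRB clones and 4 in cells of the 5 other expanded clones. Cells with a TRB sequence of no expanded clone had 0, and cells without a TRB sequence had 21. The part of the list in the result was not tested. The beta constant segment Trbc1, near-identical to Trbc2, had 522 and 195 CPM (1.42, 0.84 to 2.06). Dut and Mcm6, genes of DNA synthesis, had ratios of 1.97 (0.94 to 3.21) and 2.53 (0.58 to 5.62). The list of cell cycle genes outside the rule had a median of 1.27 in checkpoint-positive cells, with 9 of 13 higher and 1 lower, and of 0.17 in other CD8 cells, with 1 of 15 higher, although both had been gated on low counts of 4 cycling genes. Gstp3 and Arhgap9 had ratios of 2.35 (1.08 to 4.01) and 1.93 (0.83 to 3.28).

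On the receptor side, 5 of 7 inhibitory receptors and surface proteins outside the rule were at least 1.5-fold higher in KO and 0 lower (median 1.23). Ctla4 had 191 and 52.4 CPM (1.86, 0.76 to 3.22) and Cxcr6 had 193 and 59.9 CPM (1.69, 0.65 to 2.94). Tox had 158 and 44.9 CPM (1.81, 0.63 to 3.30) and Rbpj had 156 and 44.9 CPM (1.80, 0.61 to 3.29). The exhaustion factor list as a whole had a median of 0.19, with 6 of 18 higher and 2 lower. Bhlhe40 (-0.20, -0.66 to 0.28) and Nr4a3 (-0.37, -0.83 to 0.12) did not separate from 0. Glycolysis genes had a median of -0.40, with 2 of 12 higher and 3 lower.

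Nuclear respiratory chain genes were higher in KO. Of 32 genes of complexes I, III and IV, 19 were at least 1.5-fold higher and 0 lower in checkpoint-positive KO cells, with a median of 0.63, against 4 higher and 0 lower in other CD8 cells, with a median of 0.31. Uqcrb of complex III had 290 CPM in KO and 97.4 CPM in WT checkpoint-positive cells (1.57, 0.75 to 2.52), and Ndufb8 of complex I had 244 and 112 CPM (1.12, 0.34 to 2.00). Cox6b1 of complex IV had 618 and 345 CPM (0.84, 0.39 to 1.32). The nuclear ATP synthase genes had a median of 0.52 with 6 of 14 higher in checkpoint-positive cells, and of 0.18 with 0 of 14 higher in other CD8 cells. Atp5j, a subunit of its stalk, had 567 and 360 CPM (0.66, 0.21 to 1.13). Antigen presentation genes of class I had a median of 0.31, led by the peptide transporter gene Tap1 with 220 and 89.9 CPM (1.29, 0.43 to 2.29).

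Immediate early and stress genes were lower in KO. Of 21 genes, 13 were at least 1.5-fold lower and 0 higher in checkpoint-positive cells, with a median of -0.72, against 3 lower and 2 higher in other CD8 cells, with a median of -0.15. Without mixed barcodes 8 were lower and 1 higher, with a median of -0.51, where 30.3% of all genes were higher and 13.3% lower. Junb had 1285 and 2457 CPM in checkpoint-positive cells (-0.93, -1.13 to -0.74), Ier2 had 370 and 846 CPM (-1.20, -1.54 to -0.84) and Zfp36 had 310 and 742 CPM (-1.26, -1.63 to -0.88).

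The lower side was led by Pim1, Isg15, Klf2, Rgcc, H2-Aa, Rbm38, Zfp36l1, Nfkbia, Satb1 and Icam1. Pim1, a survival kinase, had 187 CPM in KO and 659 CPM in WT checkpoint-positive cells (-1.82, -2.26 to -1.38). Klf2 had 174 and 577 CPM (-1.72, -2.19 to -1.26), while other CD8 cells had a ratio of 0.09 (-0.10 to 0.28). Nfkbia, the inhibitor of NF-kB, had 597 and 1416 CPM (-1.24, -1.51 to -0.97). Rgcc had 160 and 532 CPM, of which 43 of 71 WT UMIs lay in 1 cell. Isg15, an interferon-induced gene, had 185 and 644 CPM (-1.80, -2.24 to -1.36), and its largest WT cell held 56 of 86 UMIs; without mixed barcodes the ratio was -0.62 (-1.26 to 0.06). The class II gene H2-Aa, at 836 and 2195 CPM, lay in the mixed barcodes and its ratio of -1.39 was -0.53 (-1.75 to 0.84) without them. Naive, stem-like and memory genes had a median of -0.58, with 8 of 16 at least 1.5-fold lower and 2 higher, and of 0.01 in other CD8 cells, with 0 of 19 lower. Without mixed barcodes the first of these was -1.19, with 10 of 15 lower and 3 higher.

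**Figure D4:**
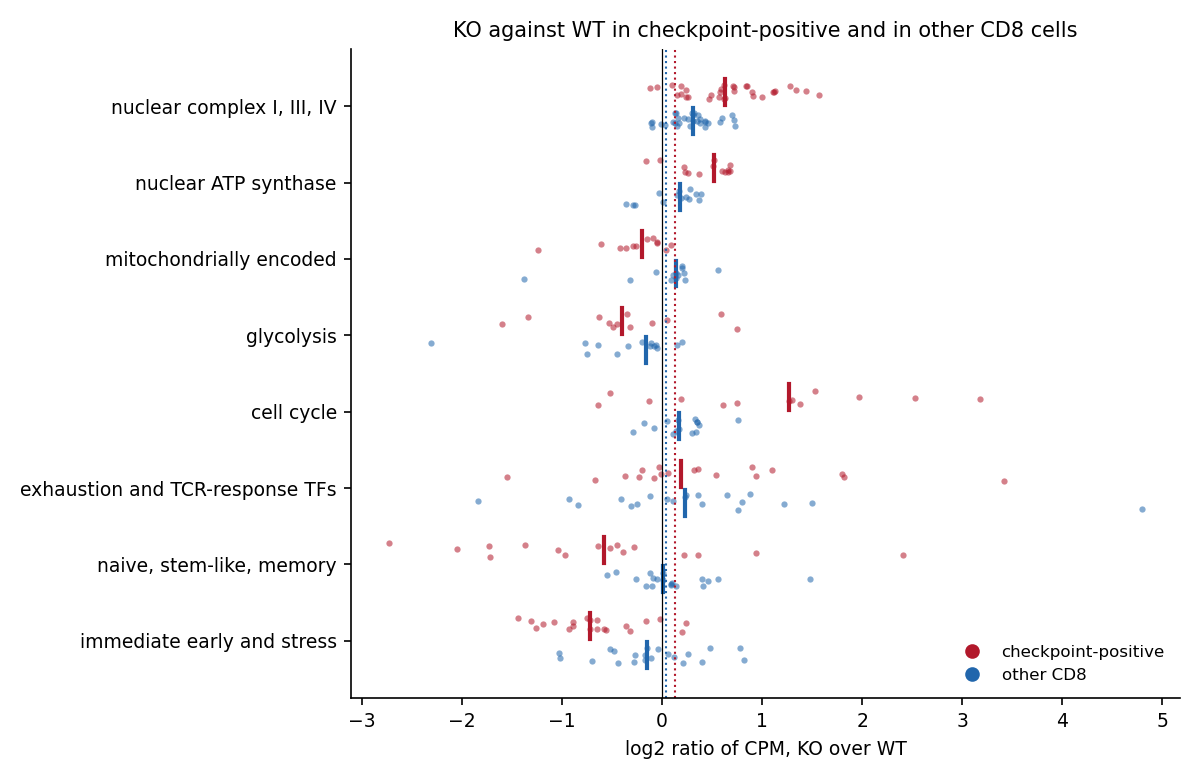
Log2 ratio of CPM, KO over WT (x axis), for each measured gene (point) of 8 gene lists (rows), in checkpoint-positive cells above other CD8 cells in each row; thick bars are list medians and dotted lines the medians of all genes measured (0.13 and 0.04). Complex I, III and IV genes have medians of 0.63 in checkpoint-positive and 0.31 in other CD8 cells, and immediate early genes of -0.72 and -0.15.

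The checkpoint-positive KO cells were not all alike. A group of 15 of the 124 had at least 3 UMIs of Ccl1, Nrgn, Penk and Igfbp7, a set taken from earlier results on the same libraries, against 1 of 32 checkpoint-positive WT cells and 0 of the other CD8 cells. Their median depth was 6293 UMIs. Nrgn, which encodes a calmodulin-binding protein best known from neurons, had 119 UMIs in 22 checkpoint-positive KO cells and 2 UMIs in 2 other KO CD8 cells (6.20, 4.31 to 9.26), and 3 UMIs in 1 checkpoint-positive and 1 UMI in 1 other WT CD8 cell. Ccl1, a T cell chemokine, had 34 UMIs in 6 checkpoint-positive KO cells, 1 UMI in other KO CD8 cells and 0 in either WT group. Of these 15 KO cells, 11 had a TRB sequence, from 7 clonotypes.

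The clones differed in these genes. Of the 3 largest KO clones, with 34 checkpoint-positive cells and 114561 UMIs, not 1 cell had 3 UMIs of the Ccl1, Nrgn, Penk and Igfbp7 set, while 4 of the 5 other expanded clones, with 15 cells and 88673 UMIs in all 5, did. Xcl1 had 1771 CPM in the 5 other clones and 218 CPM in the 3 largest (log2 ratio 3.02, 2.41 to 3.69). Nrgn had 59 and 0 UMIs and Ccl1 had 23 and 0 UMIs. With 0 set to 3 counts per set their log2 ratios were 4.67 and 3.31, and the lower limits of the counting intervals were 4.32 and 2.89. Tnfrsf4 had 259 and 26.2 CPM (3.31, 1.58 to 5.69). The clone TRBV20/TRBJ2-2 was the exception among the 5, with 0 UMIs of Xcl1, Nrgn and Tnfrsf4.

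Ccl5 and several other chemokine and effector transcripts were higher in the 3 largest clones as a set. Ccl5 had 1974 CPM in the 5 other clones and 15127 CPM in the 3 largest (-2.94, -3.17 to -2.71), and each of the 3 lay above each of the 5, at 8466 CPM or more against 4957 CPM or less. Ccl4 had a ratio of -1.31 (-1.83 to -0.81), Ifng of -1.22 (-2.35 to -0.20), Gzmk of -1.17 (-2.31 to -0.15), Nkg7 of -0.70 (-0.97 to -0.43) and Tcrg-C2 of -2.39 (-4.36 to -0.86). For genes other than Ccl5 single clones overlapped: Ccl4 had 1327 CPM in the TRBV16/TRBJ2-7 clone and 893 CPM in the larger TRBV29/TRBJ2-7 clone, and Gzmk had 468 CPM in TRBV20/TRBJ2-2, above each of the 3 largest. Pdcd1 (0.05, -0.79 to 0.87), Tigit (-0.10, -0.89 to 0.67) and Tox (-0.63, -1.71 to 0.38) had intervals that included 0. The sets were formed by clone size, and their genes were chosen after values had been seen.

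**Figure D5:**
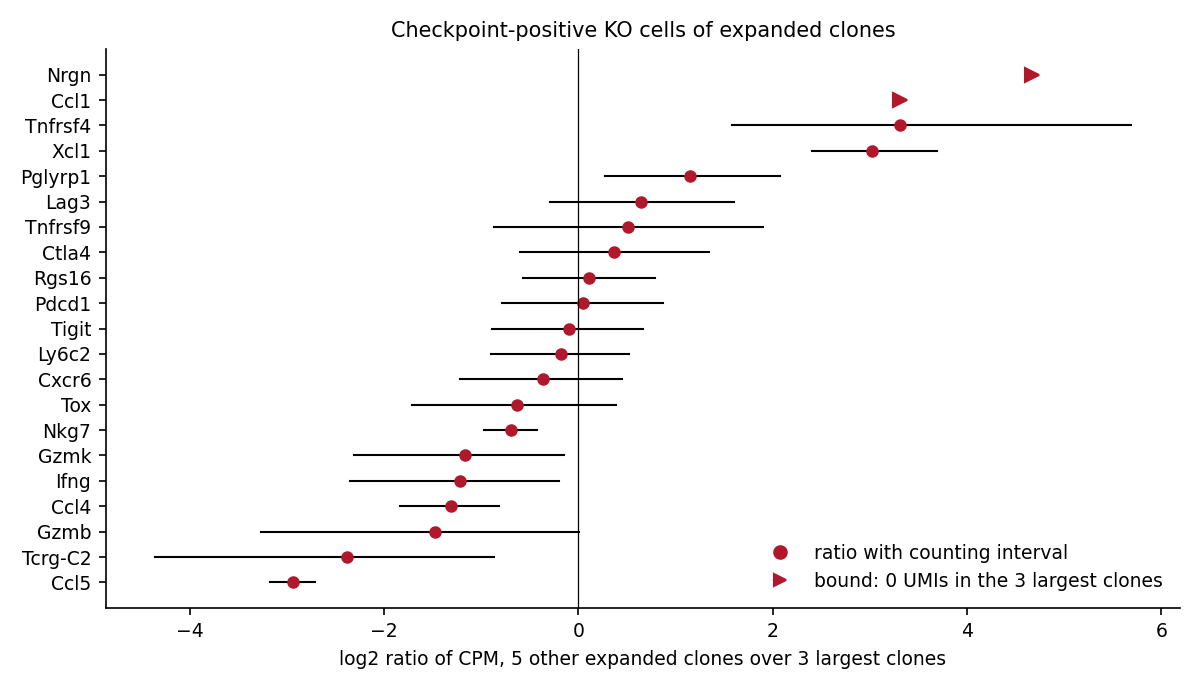
Log2 ratio of CPM (x axis) for 21 genes (rows) between checkpoint-positive KO cells of the 5 other expanded TRB clones (15 cells) and of the 3 largest clones (34 cells). Lines are 95% counting intervals. Triangles are ratios with 0 set to 3 counts, where the 3 largest clones had 0 UMIs. Nrgn, Ccl1, Tnfrsf4 and Xcl1 lie at 3.02 or above and Ccl5 at -2.94.

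The checkpoint-positive KO cells were also split by single checkpoint genes, and the genes given here were chosen after their values had been seen. Over the 2821 genes measured, 13.5% were at least 1.5-fold higher and 18.4% lower in the cells with Tnfrsf9. The split by Havcr2 gave 16.7% higher and 23.3% lower, that by Pdcd1 15.4% and 10.9%, that by Lag3 13.7% and 13.8%, and that by Tigit 11.8% and 12.5%. The 33 cells with Tnfrsf9 had 1651 CPM of Xcl1, against 426 CPM in the 91 without (1.95, 1.65 to 2.26), and 2502 against 9489 CPM of Ccl5 (-1.92, -2.07 to -1.78). The 14 cells with Havcr2 had 210 CPM of Gzmb, against 40.4 CPM in the 110 without (2.38, 1.24 to 3.48), and 0 UMIs of Tcf7, against 42 UMIs. The 70 cells with Pdcd1 had 340 CPM of Nrgn, against 91.1 CPM in the 54 without (1.90, 1.15 to 2.73). The 53 cells with Lag3 had 110 CPM of Klf2, against 240 CPM in the 71 without (-1.13, -1.85 to -0.45), and the 63 cells with Tigit had 50.7 CPM of Tcf7, against 126 CPM in the 61 without (-1.31, -2.38 to -0.32). The same genes did not move in each split: Tcf7 had ratios of 0.01 with Pdcd1, 0.11 with Lag3 and -0.05 with Tnfrsf9, and Klf2 had 0.00 with Tnfrsf9 and 0.36 with Tigit, all with intervals that included 0.

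Exhaustion factors were higher and naive genes lower in the cells with several checkpoint genes, which were also deeper (medians of 4141 and 2443 UMIs). In the 61 KO cells with 2 or more checkpoint genes set against the 63 with 1, where 16.5% of all 2821 genes measured were at least 1.5-fold higher and 12.3% lower, 9 of 17 exhaustion factors were higher and 0 lower (median log2 ratio 0.70). Of 13 naive, stem-like and memory genes, 7 were lower and 0 higher (-0.72). Without mixed barcodes 5 of 12 naive genes were lower and 0 higher (-0.40), where 16.6% of all genes were higher and 13.0% lower. The exhaustion factors then had 9 of 17 higher and 0 lower (0.63). Rbpj had a ratio of 1.41 (0.60 to 2.31), Tox of 0.83 (0.09 to 1.61), Xcl1 of 2.08 (1.69 to 2.50) and Il7r of -1.42 (-2.30 to -0.58). Of those with a TRB sequence, 30 of 37 cells with 2 or more genes (81.1%, 64.8 to 92.0) and 19 of 23 cells with 1 gene (82.6%, 61.2 to 95.05) belonged to an expanded clone. The 2 shares were close, and their intervals take cells of 1 clone as separate draws.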

How the data were processed

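The authors deposited 1 unfiltered matrix of UMI counts by gene and barcode for each genotype. Per the file headers it came from Cell Ranger 3.1.0. The submitters' processing notes list mm10 as the build, together with R 3.6.1 and Seurat 3.2.0, whose use they leave unstated. Libraries were 10x Genomics 5′ V1.0, with about 17400 cells loaded per chip position, per the labels' protocols. The deposited receptor tables list contigs with CDR3 sequences, and productive, high-confidence TRB (276 KO, 242 WT) and TRA contigs were joined to cells by barcode within a genotype. The matrices held 24385843 KO and 35152477 WT UMIs over 737280 barcodes each. 0 columns of other samples were left unused.

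UMIs were summed per group and divided by the group total (CPM), with exact Poisson intervals. Ratios carry exact conditional binomial intervals and shares exact Clopper-Pearson intervals, all at the 95% level and for counting error only, since PCR-amplified UMIs of cells in 1 library are not independent samples. A count of 0 was set to 3 counts for a ratio, which is not the limit of the counting interval. Levels were not compared between genes. Duplicated symbols and the genes of the rule were left out of the gene lists, but rule genes stayed in the cell type marker sums. Doublets were removed only through the rule, and an own implementation of the Scrublet scheme at 0.8% per 1000 barcodes was an alternative. Empty droplets were barcodes with 10 to 100 UMIs (57860 KO, 61754 WT). Genes were named by size: at least 50 UMIs and 20 CPM, above the CPM of empty droplets, without receptor segments, ribosomal, mitochondrial and unnamed genes, ranked by the interval bound nearest 0, the 10 highest and 10 lowest, plus list members; some of these genes are not reported here. The naming rule let constant segments through. The cells, lists and rules were chosen with earlier results of these data known. Coordinates come from RefSeq GRCm38.p6. Python 3.11.15, numpy 2.4.6, pandas 2.3.3, SciPy 1.17.1, scikit-learn 1.9.0 and matplotlib 3.10.9 were used.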

Additional observations from a re-analysis of the deposited data

Results flagged for a closer look

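For 5 named genes the checkpoint-positive cells lay above the other CD8 cells in one library and below them in the other, with both counting intervals away from 0. Only named genes outside the rule that were measured in both libraries were screened. The share of all genes with such a reversal was not counted, so the number 5 is only a description. Pim1, a survival kinase, had log2 ratios of -0.92 in KO and 0.62 in WT. Isg15, an interferon-induced gene, had -0.93 in KO and 0.95 in WT, and the WT value turned to -0.29 without the mixed barcodes rich in class II or neutrophil transcripts. Zfp36l1, which destabilises mRNA, had -1.13 in KO and 0.51 in WT. Nr4a1, an early gene of T cell receptor signals, had -0.30 in KO and 0.58 in WT. The chemokine receptor gene Cxcr4 had -1.31 in KO and 0.59 in WT. The difference between the libraries was not tested, since each genotype had 1 library. After thinning to 1000 UMIs the WT values of Pim1, Isg15 and Zfp36l1 turned to -0.43, -0.32 and -0.93.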

How the results depend on the processing

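No paired analysis was possible because each genotype had 1 RNA library and no result came from a test. The KO over WT ratio of the checkpoint-positive share ranged from 1.16 to 2.48 on the log2 scale, the highest with at least 2 checkpoint UMIs. The exhaustion factor median ranged from 0.75 to 1.33 in KO and from 0.26 to 1.17 in WT, where it was 0.52 after thinning to 1000 UMIs and 0.26 with a TRB contig required. The naive and memory median ranged from -1.98 to -1.08 in KO and from -0.75 to -0.03 in WT. Between KO and WT checkpoint-positive cells it ranged from -1.39 to -0.32, the respiratory chain median from 0.50 to 0.88 and the immediate early median from -0.96, with at least 2 checkpoint UMIs, to -0.36. For the share in expanded clones, a clone here needed identical alpha and beta chains, except in the alternative that used TRB alone. The paired shares were 73.1% among checkpoint-positive and 21.4% among other KO CD8 cells. Over the alternatives they ranged from 66.7% to 88.1% and from 16.7% to 45.5%. The TRB shares of 81.7% and 17.1% were not recomputed under the other settings. The alternatives without mixed barcodes and without the 3 largest KO clones were chosen after seeing the data.

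These single-gene log2 ratios, whose own counting interval excluded 0, changed sign, and the cause was not tested. After thinning, checkpoint-positive over other CD8 cells was -1.81 for H2-Aa in KO, and in WT -1.07 for H2-Aa, -0.34 for S100a6, -0.43 for Pim1, -0.32 for Isg15, -0.93 for Zfp36l1, -0.71 for Pgk1 and 0.0079 for mt-Co1, while KO over WT was 0.72 for Zfp36l1. With a TRB contig required it was -0.44 for Ifng in KO, and in WT -0.19 for S100a4, -0.11 for Isg15, -3.63 for H2-Aa, 0.016 for mt-Atp6, -1.24 for Ifi27l2a and -0.38 for Atpif1, and KO over WT was 3.37 for H2-Aa. With at least 2 checkpoint UMIs it was -0.17 for H2-Aa in KO and -1.36 for Ifng in WT, and KO over WT was 0.12 for mt-Nd2. H2-Aa in KO was -0.35 against depth-matched cells and -0.72 without mixed barcodes, where Isg15 in WT was -0.29 and Ifitm1 in KO, left with too few UMIs to count as measured, was -3.41. Isg15 in WT was -0.61 with Tnfrsf9 left out of the rule, and Ifitm1 in WT was -2.41 with scored doublets removed. Of the other values outside the list medians, 3573 stayed within their counting interval and 376 moved beyond it. They were ratios of measured single genes, the checkpoint-positive share of each library and the WT shares in expanded clones. Some of the ratios whose interval included 0 changed sign as well. Depth limits the 32 WT cells most.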

Other observations

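The mitochondrial gene mt-Atp8, which encodes a small membrane subunit of the ATP synthase, was lower in KO than in WT in every population examined. Checkpoint-positive CD8 cells had 65 UMIs (133 CPM) in KO and 42 UMIs (315 CPM) in WT, a log2 ratio of -1.24 (-1.82 to -0.64). Other CD8 cells had 180 and 469 CPM (-1.38, -1.71 to -1.07), other cells with a Cd3 UMI had 138 and 344 CPM (-1.31, -1.47 to -1.16), and cells with Csf1r and no Cd3 UMI had 109 and 260 CPM (-1.26, -1.37 to -1.15). Cells with Cd79a and no Cd3 UMI had 118 and 437 CPM (-1.89, -2.48 to -1.35). In empty droplets the gene was at 242 CPM in KO and 311 CPM in WT (-0.36, -0.50 to -0.23). The neighbouring gene mt-Atp6, read from the same transcript, had ratios of -0.09 (-0.22 to 0.04) in checkpoint-positive cells, 0.14 (0.08 to 0.20) in other CD8 cells, 0.02 (-0.01 to 0.06) in other cells with a Cd3 UMI, 0.06 (0.04 to 0.08) in the Csf1r cells, -0.30 (-0.39 to -0.21) in the Cd79a cells and 0.29 (0.25 to 0.33) in empty droplets. The cause was not tested.

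Atpif1 was at or above its WT level in KO in the same populations. Its log2 ratio was 0.62 (-0.05 to 1.34) in checkpoint-positive cells, 0.50 (0.02 to 0.98) in other CD8 cells, 0.63 (0.52 to 0.75) in other cells with a Cd3 UMI, 0.16 (0.11 to 0.21) in Csf1r cells, 0.80 (0.51 to 1.08) in Cd79a cells and 0.10 (0.01 to 0.19) in empty droplets.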
